A study of Mus musculus with 2 samples.

Results

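The WAVE complex and the small GTPase *Rac1* that switches it on were examined as a set of 10 genes, chosen by symbol from the 32285 genes counted in both libraries. The members were *Rac1*, the Rac-binding subunits *Cyfip1* and *Cyfip2*, the scaffold subunits *Nckap1* and *Nckap1l*, the actin-activating subunits *Wasf1* and *Wasf2*, the adaptors *Abi1* and *Abi3*, and the small subunit *Brk1*. A WAVE complex holds 1 protein of each of these 5 subunit families. In the resting complex the CYFIP, NCKAP1, ABI and BRK1 proteins hold the WASF protein inactive. Active Rac binds the CYFIP subunit and frees the end of the WASF protein that activates ARP2/3, which then nucleates branched actin at the edge of lamellipodia. In microglia, the resident macrophages of the brain, such protrusions are used to survey the tissue and to engulf material.

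Brains of 23-week-old male mice were pooled, 6 *Disc1* WT/WT littermate controls in 1 library and 6 *Disc1* LI/LI mice, homozygous for the *Disc1* locus impairment allele, in the other. The libraries are called WT and LI below. The allele is carried by all cells of the mouse, and pooling left 1 sample per genotype, so no test between genotypes was possible and each interval below covers counting error only. All tissue was dissociated with actinomycin D, a blocker of transcription, and CD45low CD11b+ cells were sorted and counted by droplet 3′ single-cell RNA-seq with unique molecular identifiers (UMIs). Which of the chips named for the study each library used is not given in the sources used here. The comparisons ask which paralogs of the complex each class of cell uses, and whether the genes upstream of ARP2/3 differed with the genotype.

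Several members belong to families of related genes, so it matters whether reads of one could be counted for another. The last 60 coding bases of the 3 Rac genes are printed because this stretch, which encodes the membrane-anchoring tail, is less alike than the rest. Capitals mark bases unlike *Rac1* (GENCODE M21 transcripts on GRCm38, coding bases 520 to 579 counted from the start codon).
Rac1: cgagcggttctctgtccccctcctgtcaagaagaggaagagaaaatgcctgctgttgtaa
Rac2: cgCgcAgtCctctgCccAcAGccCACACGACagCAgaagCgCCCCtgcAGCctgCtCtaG
Rac3: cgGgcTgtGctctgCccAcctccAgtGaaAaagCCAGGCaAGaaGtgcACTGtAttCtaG
*Rac2* differed from *Rac1* at 28 of these 60 bases and *Rac3* at 24, whereas the preceding 519 coding bases matched *Rac1* at 79.8% and 78.8%. Over whole coding sequences identity was 77.6% for *Cyfip1* and *Cyfip2*, 62.1% for *Nckap1l* and *Nckap1*, 57.5% for *Wasf2* and *Wasf1*, 47.4% for *Abi3* and *Abi1* and 77.6% for *Rac1* and *Rac2*. None of these pairs shared a run of 31 bases in its annotated exons, 0 in each pair. No exon of a member overlapped an exon of another gene on the same strand. Exons of *Rac1*, *Cyfip1*, *Abi1* and *Abi3* did overlap genes on the opposite strand, which 3′ libraries keep apart.

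Each barcode was put in 1 of 3 classes by genes that are not members. Microglia had at least 0.5% of their UMIs in the 6 gate genes *P2ry12*, *Gpr34*, *Tmem119*, *Siglech*, *Fcrls* and *Olfml3* and under 1% in *S100a8* and *S100a9*, neutrophils had at least 3% in the latter, and the rest were other cells. Of 7032 WT and 7817 LI cells, 6180 (87.9%) and 1950 (24.9%) were microglia, 116 (1.65%) and 3622 (46.3%) neutrophils, and 736 (10.5%) and 2245 (28.7%) other cells. All 11 microglia markers outside the gate were highest in microglia and all 11 neutrophil markers outside the gate were highest in neutrophils, in both libraries. Total depth was 33601957 and 47731571 UMIs, median UMIs per microglia were 4271 and 3787.5, and 12 barcodes occurred in both libraries. *Disc1* had 642 UMIs (19.1 per 1000000, 95% exact Poisson interval 17.7 to 20.6) in WT and 22 (0.461, 0.289 to 0.698) in LI.

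Microglia carried 1 dominant gene of the CYFIP, NCKAP and WASF families, and the levels ran from 868 UMIs per 1000000 down to almost none. *Rac1* (chromosome 5, 143503634 to 143528036, GRCm38), the GTPase that binds the complex, had 443 UMIs per 1000000 of the class (CPM, 436 to 451) in WT microglia and 408 (394 to 422) in LI microglia. *Cyfip1* (chromosome 7, 55841745 to 55932602), the Rac-binding subunit, had 868 (857 to 879) and 624 (607 to 641). It was the highest of the 10 genes in microglia of both libraries. Its paralog *Cyfip2* (chromosome 11, 46193850 to 46312859), which also occupies the Rac-binding place, had 0.442 (0.236 to 0.756) and 2.20 (1.31 to 3.48), from 13 and 18 UMIs. *Nckap1l* (chromosome 15, 103453794 to 103498810), also known as Hem1 and the scaffold of blood cell WAVE complexes, had 182 (177 to 187) and 147 (138 to 155). *Nckap1* (chromosome 2, 80500512 to 80581380), the scaffold of most other tissues, had 1.53 (1.12 to 2.05) and 0.245 (0.0296 to 0.884), from 45 and 2 UMIs.

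Among the remaining subunits *Wasf2* stood far above its paralogs, whereas *Abi3* and *Abi1* were both present. *Wasf2* (chromosome 4, 133130505 to 133199756), which encodes the WAVE2 protein that activates ARP2/3, had 591 CPM (582 to 600) in WT microglia and 534 (518 to 550) in LI microglia. *Wasf1* (chromosome 10, 40883475 to 40938570), known from neurons, had 4 UMIs in 6180 WT microglia and 0 in 1950 LI microglia, where the upper 95% limit was 0.451 CPM. The further paralog *Wasf3* had 0 and 1 UMI there, so *Wasf2* was in effect the WASF gene of microglia. *Abi3* (chromosome 11, 95830074 to 95842476), an adaptor of the ABI family, had 432 (424 to 439) and 410 (396 to 424). *Abi1* (chromosome 2, 22940073 to 23040241), the widely expressed adaptor, had 132 (128 to 136) and 88.2 (81.9 to 94.9), and its further paralog *Abi2* 28.1 and 21.7. *Brk1* (chromosome 6, 113604772 to 113616951), the smallest subunit, had 243 (237 to 248) and 287 (275 to 298). The shares of cells with a UMI followed these levels, from 5764 of 6180 WT microglia for *Cyfip1* (93.3%, exact binomial interval 92.6 to 93.9) to 42 for *Nckap1* (0.680%). With each cell thinned to 1000 UMIs, *Cyfip1* was seen in 56.2% of WT and 44.9% of LI microglia and *Abi3* in 34.8% and 34.5%.

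The order of the 7 well-expressed genes in microglia was *Cyfip1*, *Wasf2*, *Rac1* with *Abi3*, *Brk1*, *Nckap1l* and *Abi1* in both libraries. The intervals of *Rac1* and *Abi3* overlapped and no other neighbours among the 7 did. UMIs of 3′ libraries count transcripts and were not divided by length, so the order compares molecules as captured and differences in capture between genes were not tested.

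**Figure D1:**
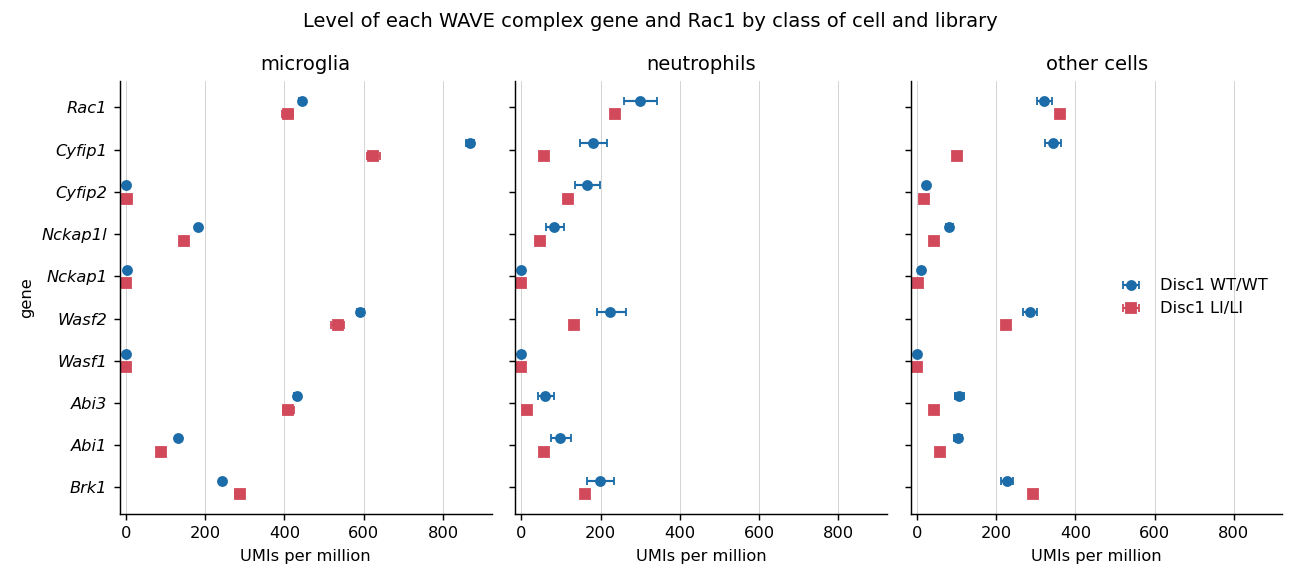
CPM (horizontal axis) of the 10 genes in microglia, neutrophils and other cells, with circles for the WT library, squares for the LI library and bars for the 95% exact Poisson interval. Cyfip1, Wasf2 and Abi3 lie far to the right in microglia only, whereas Cyfip2 leaves 0 in neutrophils, at 165 and 117 CPM.

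In neutrophils, the order differed and *Rac1* led, at 298 CPM (258 to 343) in WT and 236 (230 to 243) in LI. In WT neutrophils the interval of *Rac1* overlapped that of *Wasf2*, at 225 CPM (190 to 264). *S100a8* and *S100a9*, by which this class was chosen, are part of its totals. They lower the CPM of all other genes in neutrophils without changing their order. *Cyfip2* had 165 (136 to 199) and 117 (112 to 121) there and was seen in 58 of 116 cells (50%, 40.6 to 59.4) and 1483 of 3622 (40.9%, 39.3 to 42.6), against 0.210% and 0.872% of microglia, at median depths of 4844.5 and 4194 UMIs in neutrophils and 4271 and 3787.5 in microglia. With cells thinned to 1000 UMIs it was seen in 11.0% of LI neutrophils and 0.207% of LI microglia. Its log2 ratio of microglia over neutrophils was -8.54 (-9.50 to -7.71) in WT and -5.73 (-6.48 to -5.06) in LI. The few *Cyfip2* UMIs of microglia were 0.268% and 1.89% of the neutrophil level. In microglia, neutrophil markers other than *Csf3r*, which microglia also held at 53.4% and 56.2% of the neutrophil level, reached 0.0605% at most in WT and from 0.437% to 1.58% in LI. *Cyfip2* was thus almost absent from microglia and, in WT, stood above the neutrophil markers other than *Csf3r*. In LI microglia it rested on 18 UMIs (1.31 to 3.48 CPM), too few to set it apart from the highest of these markers, *Mmp9* at 1.58%.

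Neutrophil barcodes also held RNA of microglia genes, unequally in the 2 libraries, and this moved with several members. The 11 microglia markers outside the gate summed to 20.3% of their microglia level in WT neutrophils and to 4.06% in LI neutrophils, with ranges of 18.9 to 27.0% and 3.47 to 11.1% over the 11 genes. The upper end in LI was *Selplg* alone, and the next marker, *Csf1r*, stood at 4.96%. *Cyfip1* stood at 20.7% and 9.25% of its microglia level, inside the range in WT and above all of these markers but *Selplg* in LI. *Abi3* stood at 13.9% and 3.68%, below the range in WT and inside it in LI, whereas *Nckap1l* (45.4% and 32.9%), *Wasf2* (38.1% and 24.7%) and *Abi1* (73.8% and 65.2%) stood above them. The levels were therefore also taken over the 89 and 3444 neutrophils in which the microglia gate genes made up under 0.1% of UMIs, a choice made after these values were seen. In them *C1qa*, a microglia marker outside the gate, stood at 1.30% and 0.733% of its microglia level.

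In those neutrophils the paralog picture was the same in both libraries. *Cyfip2* had 194 CPM (153 to 243) and 120 (115 to 125), and *Cyfip1* had 68.2 (44.9 to 99.2) and 41.1 (38.4 to 44.0), or 7.85% and 6.59% of its microglia level, above *C1qa* at 1.30% and 0.733%. *Abi3* had 0 UMIs in the 89 WT cells, which allows up to 7.57 CPM at 3 counts, and 3.40 (2.64 to 4.31) in LI, 0.828% of the microglia level. In the same LI cells *C1qa* stood at 0.733% and *Cx3cr1* at 0.569%, so *Abi3* was close to the microglia RNA of these barcodes. *Abi1* had 80.8 (55.3 to 114) and 56.9 (53.6 to 60.3), *Nckap1l* had 70.7 (47.0 to 102) and 44.3 (41.4 to 47.3), and *Wasf2* had 149 (113 to 192) and 117 (112 to 122). These 3 subunits, with *Brk1* at 177 (138 to 223) and 157 (152 to 163) and *Rac1* at 250 (203 to 304) and 232 (225 to 239), remained well above the microglia RNA of these barcodes.

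Expressed as a share of each pair, the Cyfip and Abi families and *Rac1* with *Rac2* differed between microglia and neutrophils, and the Nckap1 and Wasf families did not. *Cyfip1* took 99.9% of *Cyfip1* and *Cyfip2* UMIs in WT microglia (exact binomial interval 99.9 to 100.0) and 99.6% (99.4 to 99.8) in LI microglia. In neutrophils with little microglia RNA it took 26.0% (17.9 to 35.5) and 25.6% (24.1 to 27.1). In all neutrophils the shares were 52.2% (45.5 to 58.8) and 33.1% (31.6 to 34.6), where the libraries differed beyond counting error, together with their microglia RNA. *Abi3* took 76.6% and 82.3% of *Abi3* and *Abi1* UMIs in microglia, and 0% (up to 10.9) and 5.63% (4.40 to 7.09) in neutrophils with little microglia RNA. *Nckap1l* took 99.2% and 99.8% of its pair in microglia and 100% and 99.6% in those neutrophils, and *Wasf2* held all but 4 of 17364 UMIs of its pair in WT microglia and all 2851 in LI neutrophils. Dividing UMIs by exon length moved the *Cyfip1* share to 39.4% in all WT neutrophils and 22.7% in all LI neutrophils.

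**Figure D2:**
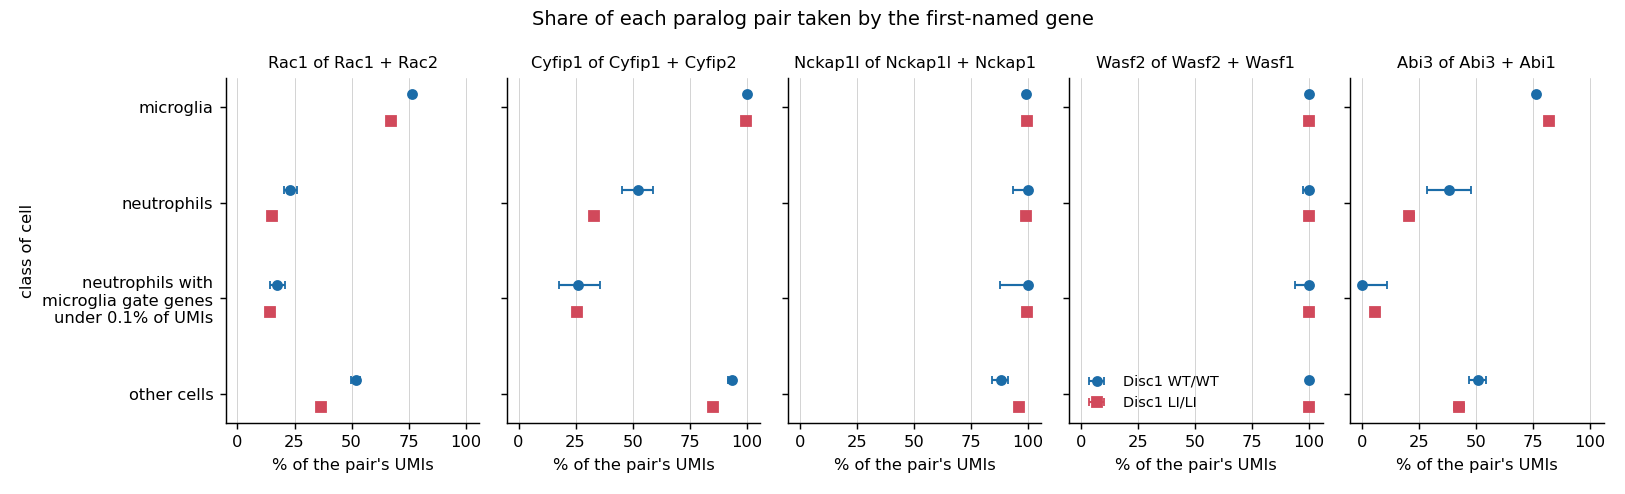
Percent of a pair's UMIs taken by the first-named gene (horizontal axis) in 3 classes of cells and in the neutrophils with microglia gate genes under 0.1% of UMIs, with circles for WT, squares for LI and bars for the 95% exact binomial interval. Cyfip1 drops from over 99% in microglia to 26.0% and 25.6% in those neutrophils and Abi3 from 76.6% and 82.3% to 0% and 5.63%, while Nckap1l and Wasf2 are near 100% in both; Nckap1l is lower in WT other cells, at 88.2%.

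The same cells differed in the Rac gene they carried. *Rac2*, the Rac of blood cells, had 136 CPM (132 to 140) and 198 (188 to 207) in microglia and 992 (918 to 1071) and 1344 (1328 to 1359) in neutrophils. *Rac1* took 76.5% and 67.4% of *Rac1* and *Rac2* UMIs in microglia, 51.8% and 36.8% in other cells, and 17.5% (14.4 to 20.9) and 14.4% (14.0 to 14.8) in neutrophils with little microglia RNA. *Rac3*, known from the nervous system, had 35.1 and 41.0 in microglia and 6.00 and 1.71 in neutrophils. *Rhog*, a related switch that acts on Rac through Elmo and Dock proteins, had 202 and 219 in microglia and 252 and 328 in neutrophils. In LI neutrophils 64.7% of cells held UMIs of both *Rac1* and *Rac2* and 32.3% of *Rac2* alone, while 42.2% of LI microglia held both and 35.5% *Rac1* alone. Divided by exon length, *Rac1* took 69.2% and 58.8% in microglia and 17.2% and 10.8% in all neutrophils. Neither class used 1 Rac gene to the exclusion of the other.

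Within neutrophils the CPM of several members varied with granule genes, which mark earlier stages of the lineage. Cells were ordered by their UMI share of *Camp*, *Ngp* and *Ltf* and split into tertiles, which held 0.0365%, 1.18% and 10.1% of UMIs in these genes in LI. *Cyfip2* had 59.8 CPM (52.2 to 68.3), 96.5 (88.9 to 105) and 145 (138 to 152) from the lowest to the highest tertile in LI, and 72.4 (33.1 to 137), 145 (97.7 to 207) and 212 (165 to 267) in WT. *Rac1* went the other way, at 333 (314 to 352), 275 (262 to 288) and 186 (178 to 193) in LI and 410 (306 to 540), 285 (217 to 367) and 265 (213 to 326) in WT. In LI the 3 intervals of each gene were apart, and in WT, with 38 or 39 cells a tertile, most overlapped. *Wasf2* (164, 139 and 118), *Nckap1l* (61.2, 54.3 and 41.0), *Abi1* (72.3, 63.5 and 49.9) and *Brk1* (206, 176 and 140) were all lower toward the highest tertile of LI, and *Rac2* was not, at 1260, 1355 and 1364. *Cyfip1* had 67.7 (59.6 to 76.6), 55.3 (49.6 to 61.5) and 55.9 (51.7 to 60.3). The microglia gate genes were also lower toward the highest tertile of LI, at 698, 344 and 209 CPM, and median UMIs were higher, at 2449.5, 3950 and 7957. *S100a8* and *S100a9* took 21.2%, 28.7% and 35.3% of UMIs in these tertiles. They and the granule genes are part of the totals, so a higher share of them lowers the CPM of all other genes. Levels by tertile were not taken without these UMIs, and the part of these measures in the levels was not tested.

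**Figure D3:**
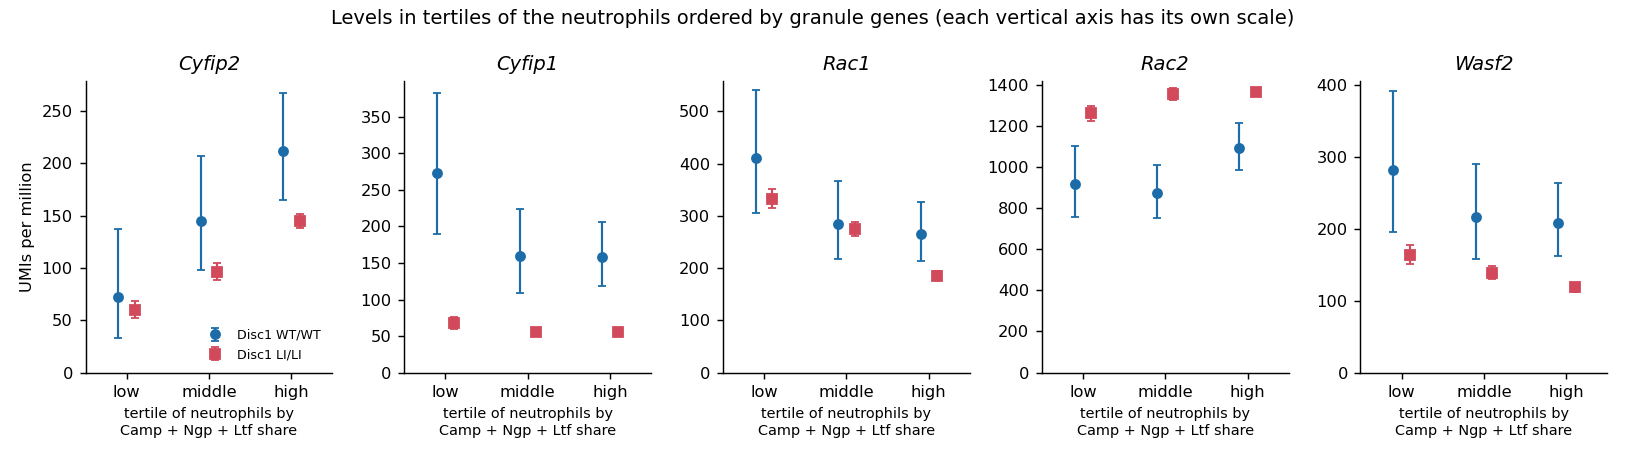
CPM (vertical axes, each from 0 with its own scale) of 5 genes in tertiles of the neutrophils ordered by the share of granule gene UMIs, with circles for WT, squares for LI and bars for the 95% exact Poisson interval. Cyfip2 is higher toward the granule-rich tertile, from 59.8 to 145 in LI, whereas Rac1 is lower, from 333 to 186, and Rac2 varies little in CPM. The totals include S100a8 and S100a9, at 21.2% of UMIs in the lowest and 35.3% in the highest LI tertile. They also include the granule genes, at 0.0365% and 10.1%.

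Among the other cells, 2 groups had at least 50 cells in both libraries. Monocyte-marked cells (52 in WT and 1427 in LI) carried almost only *Cyfip1* of the Cyfip pair. *Cyfip1* had 212 CPM (174 to 256) and 103 (97.6 to 109) in them, *Cyfip2* 7.78 (2.12 to 19.9) and 9.64 (7.94 to 11.6), and *Cyfip1* took 96.5% and 91.5% of the pair. *Rac1* had 383 (331 to 440) and 415 (403 to 426) there beside *Rac2* at 474 and 605, and *Wasf2* had 253 (211 to 300) and 246 (237 to 255). *Abi3* was low, at 75.8 (53.9 to 104) and 35.9 (32.6 to 39.5), beside *Abi1* at 107 (80.6 to 139) and 65.1 (60.6 to 69.9), with intervals that overlapped in WT and were apart in LI. T and NK cells (68 and 149) carried both Cyfip genes, *Cyfip1* at 217 (170 to 272) and 107 (84.8 to 133) and *Cyfip2* at 89.1 (60.1 to 127) and 61.5 (45.0 to 82.0), so that *Cyfip1* took 70.9% (61.1 to 79.4) and 63.5% (54.4 to 71.9). Their *Rac2* stood at 867 and 1049 and their *Rac1* at 255 and 249. Microglia gate genes summed to 1508 and 1000 CPM in T and NK cells and to 743 and 186 in monocyte-marked cells, against 11802 and 10790 in microglia, and their part in the *Cyfip1* and *Abi3* levels was not tested.

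*Nckap1* was rare in all 3 classes and had its highest level in a few other cells with markers of endothelium or choroid plexus. Other cells held 39 *Nckap1* UMIs in 22 cells of WT and 32 in 23 cells of LI, or 11.0 (7.84 to 15.1) and 1.78 (1.22 to 2.52) CPM. In the 22 and 30 cells with UMIs of at least 2 of the endothelial markers *Cldn5*, *Flt1* and *Pecam1*, *Nckap1* reached 147 and 129 CPM, from 10 and 18 UMIs. A further 10 and 1 UMIs came from 5 and 2 cells with *Ttr*, the transthyretin made by the choroid plexus, at 1% of UMIs or more, a split made after these values were seen. The remaining 709 and 2213 other cells held 19 and 13 *Nckap1* UMIs, or 5.60 and 0.731 CPM. *Wasf1* had 0 UMIs in 736 and 1 in 2245 other cells.

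Between microglia and neutrophils, 8 of the 10 members reached 50 CPM in at least 1 of the 2 sums in both libraries, the minimum for a comparison. *Cyfip1*, *Nckap1l*, *Wasf2* and *Abi3*, 4 of the 8, were at least 1.5-fold higher in microglia in both libraries and 1, *Cyfip2*, was lower by as much. Over all 3332 genes compared the same held for 60.7% higher and 15.7% lower. The count of higher members was 6 with neutrophils of little microglia RNA, *Rac1* and *Abi1* included, and 3 with the trimmed mean of M-values (TMM) scaling. The shares of all genes are those of the main settings, so these 2 counts have no share beside them. The log2 ratios of microglia over neutrophils were 2.27 (2.01 to 2.54) and 3.43 (3.34 to 3.52) for *Cyfip1*, 2.85 and 4.76 for *Abi3*, 1.39 and 2.01 for *Wasf2*, and 1.14 and 1.61 for *Nckap1l*. Those of *Rac1* (0.57 and 0.79), *Abi1* (0.44 and 0.62) and *Brk1* (0.30 and 0.83) depended on the scaling. TMM scaling shifted every such ratio by -0.50 in WT and -1.36 in LI and turned these 3 in LI to -0.57, -0.75 and -0.53. It also took *Nckap1l* in LI to 0.24, under 1.5-fold. Totals without hemoglobin, mitochondrial, *S100a8*, *S100a9* and *Malat1* UMIs took *Nckap1l* in LI to 1.09. The counts of members higher and lower, 4 and 1, stayed the same with these totals. *Rac1* then had 461 and 424 CPM in microglia against 408 and 350 in neutrophils. *Brk1* had 252 and 298 against 270 and 239, so its direction in WT turned. Against other cells, 4 of 7 measured members were higher in microglia in both libraries, the same *Cyfip1*, *Nckap1l*, *Wasf2* and *Abi3*, and 0 were lower, with 31.3% and 15.9% of 3261 genes. With the microglia gate at 1% of UMIs only 1 of the 4 stayed higher. That gate counts microglia with under 1% of UMIs in the gate genes as other cells, and their part in the lower count was not tested. WT other cells already held the 11 microglia markers at 37.6% of their microglia level, and LI other cells at 6.27%.

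Between genotypes, microglia of LI differed from those of WT by less than 1.5-fold in all 7 members that could be compared. *Abi1* came nearest, at 88.2 against 132 CPM and a log2 ratio of -0.58 (-0.70 to -0.47), followed by *Cyfip1* at -0.48 (-0.52 to -0.43) and *Nckap1l* at -0.31 (-0.40 to -0.22). *Wasf2* had -0.15 (-0.19 to -0.10), *Rac1* -0.12 (-0.17 to -0.06) and *Abi3* -0.07 (-0.13 to -0.02), and *Brk1* alone was above 0, at 0.24 (0.17 to 0.31). The median of the 7 was -0.15 and that of all 3556 genes compared was -0.12. Of the members 0 were higher and 0 lower by 1.5-fold, beside 1.27% and 13.1% of all genes. *Abi1* passed 1.5-fold, at -0.61 with the microglia gate at 0.25% of UMIs and at -0.59 with cells of at least 1000 genes. Sums over cells give transcripts as a share of all UMIs, so they do not show whether the number of transcripts per cell differed. *Rac2*, which is no member, had 198 CPM in LI and 136 in WT microglia, a log2 ratio of 0.54 (0.45 to 0.62).

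**Figure D4:**
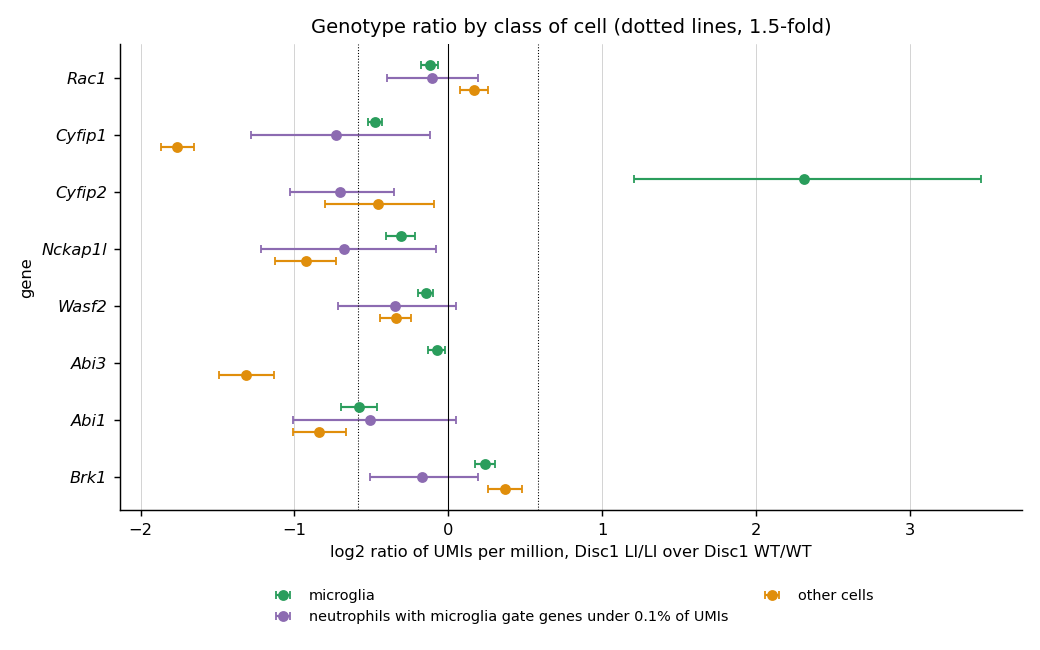
Log2 ratio of CPM, LI over WT (horizontal axis), of 8 genes in microglia, in neutrophils with microglia gate genes under 0.1% of UMIs and in other cells, with bars for the 95% Clopper-Pearson interval; dotted lines mark 1.5-fold, and Abi3 has no neutrophil point because 1 library had 0 UMIs. In microglia the 7 well-expressed genes lie between -0.58 and 0.24, and the far point is Cyfip2 at 2.32, from 18 and 13 UMIs. Other cells are a different mixture in the 2 libraries, with 52 of 736 monocyte-marked in WT and 1427 of 2245 in LI.

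The genotype ratios in microglia followed the span of the gene. By quartiles of genes ordered by span from start to end, the median log2 ratio of all genes was 0.20, -0.00, -0.26 and -0.47 from the shortest to the longest quartile. *Abi1* (100169 bases) and *Cyfip1* (90858 bases) lay in the longest quartile, with differences of -0.11 and -0.00 from its median, and *Wasf2* (69252 bases) with 0.33. *Nckap1l* differed by -0.05 and *Rac1* by 0.14 from the median of the next longest quartile, and *Abi3* by -0.07 and *Brk1* by 0.24 from that of the second. *Brk1* and *Wasf2* thus stood highest among the members against genes of like span. The part of gene span in the ratios was not tested. *Malat1*, a nuclear RNA used as a sign of RNA quality, had 28659 and 28707 CPM in microglia. In tertiles of microglia by *Malat1* share, *Cyfip1* had ratios of -0.64 (-0.71 to -0.56), -0.40 (-0.48 to -0.33) and -0.37 (-0.45 to -0.29) from low to high and *Brk1* 0.26, 0.18 and 0.33. Both kept their direction in each tertile. The tertiles were formed within each library and were not matched between libraries. *Malat1* had 18295 CPM in WT and 14574 in LI in the lowest tertile, and 42421 and 45389 in the highest.

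**Figure D5:**
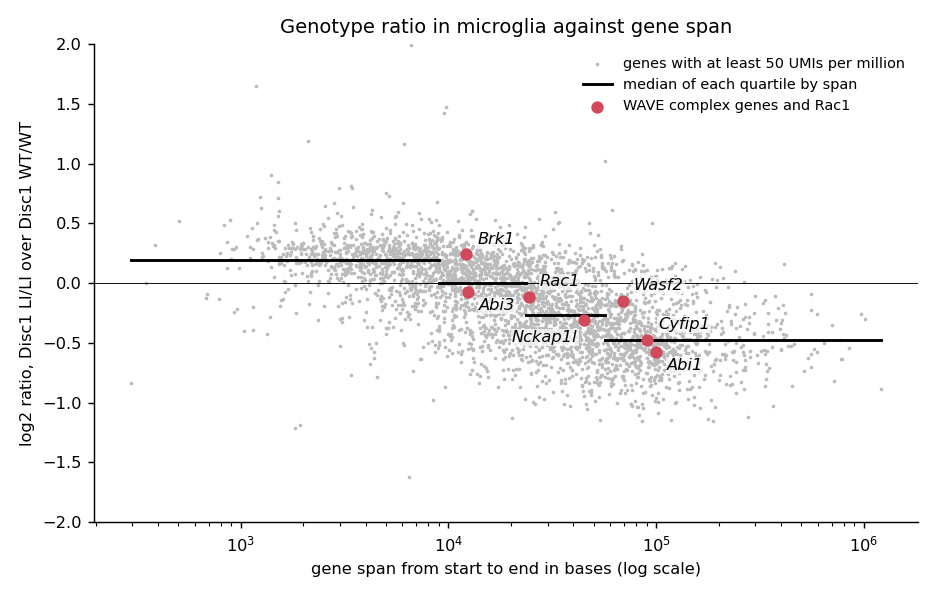
Log2 ratio, LI over WT, in microglia (vertical axis) against the span of the gene in bases (horizontal log axis) for 3556 genes in grey, with the 7 members in red and the median of each quartile by span as black lines; 14 genes lie outside the axis. The medians fall from 0.20 to -0.47, and Cyfip1 and Abi1 lie close to the line of the longest quartile.

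In neutrophils, 5 of 8 measured members were at least 1.5-fold lower in LI (*Cyfip1*, *Nckap1l*, *Wasf2*, *Abi1* and *Abi3*) and 0 were higher, beside 35.2% and 6.17% of 2433 genes. The median log2 ratio was -0.76 for the members and -0.35 for all genes. The microglia gate genes came to 2034 and 331 CPM in these cells, and their part in the ratios was not tested. In neutrophils with microglia gate genes under 0.1% of UMIs, where *C1qa* stood at 1.30% and 0.733% of its microglia level, the log2 ratio of *Cyfip1* went from -1.64 (-1.91 to -1.36) to -0.73 (-1.28 to -0.12) and that of *Wasf2* from -0.77 to -0.35 (-0.72 to 0.05). *Cyfip2* had -0.50 (-0.78 to -0.21) before and -0.70 (-1.03 to -0.35) after, and *Nckap1l* -0.77 before and -0.68 (-1.22 to -0.08) after. These 3, *Cyfip1*, *Cyfip2* and *Nckap1l*, were the members lower by 1.5-fold there, and *Cyfip2* had not passed the fold over all neutrophils. *Rac1* (-0.11, -0.39 to 0.19), *Abi1* (-0.51, -1.01 to 0.05) and *Brk1* (-0.17, -0.51 to 0.20) had intervals that reached 0, at 99, 32 and 70 UMIs in WT. *Cyfip1*, *Cyfip2* and *Nckap1l* rested on 27, 77 and 28 UMIs in WT, with intervals that also held differences under 1.5-fold. No share of all genes was taken over these cells to set beside the 3. TMM scaling added 0.92 to every ratio of neutrophils and turned those of *Rac1* to 0.58, *Brk1* to 0.62, *Nckap1l* to 0.14, *Wasf2* to 0.15 and *Abi1* to 0.16, so their direction depended on the scaling. The same shift puts *Cyfip2*, at -0.50 over all neutrophils, above 0 too. *Cyfip1* (-0.72) and *Abi3* (-1.07) stayed below 0 over all neutrophils, where the microglia gate genes were higher in WT. In neutrophils with microglia gate genes under 0.1% of UMIs, *Abi3* had 0 UMIs in WT and 3.40 CPM in LI, so a lower level in LI was not seen there. TMM scaling was not run on those cells.

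The wider pathway, 71 further genes from Rac activators to ARP2/3, gave 41 genes to compare between genotypes in microglia. Of these 0 were higher by 1.5-fold and 9 were lower, with a median log2 ratio of -0.24 against -0.12 for all genes, of which 13.1% were lower. The group listed as Rac activators, which also holds activators of the related switch Cdc42, had 5 of the 9, out of 10 measured, with a median of -0.57. *Dock10*, a guanine nucleotide exchange factor, had 373 and 210 CPM (-0.83) and *Elmo1*, the partner of Dock proteins that activate Rac, 443 and 266 (-0.73). *Arhgef6*, another exchange factor, had 111 and 70.5 (-0.66). The 2 largest differences were in the Rac effector kinase *Pak1*, at 134 and 67.1 (the lowest log2 ratio of the list), and in *Washc4*, of the endosomal WASH complex, at 220 and 123 (-0.84). Of the 9 ARP2/3 subunits 1, *Actr2*, was lower by 1.5-fold, at 464 and 308 (-0.59), and the median of the 9 was 0.12. The 5 lower genes of the activator group (*Dock2*, *Dock8*, *Dock10*, *Elmo1* and *Arhgef6*) all lay in the longest quartile by span, whose median was -0.47. The part of span in their ratios was not tested.

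The pathway was also compared between classes. Of 40 measured genes 15 were higher in microglia than in neutrophils in both libraries and 9 lower, beside 60.7% and 15.7% of all genes. With TMM scaling the counts were 8 and 16, without a share of all genes to set beside them. The 9 lower included 5 of the 9 ARP2/3 subunits, with *Arpc5* at 248 and 242 CPM in microglia against 902 and 777 in neutrophils. *Rac2*, *Arhgap15*, a Rac-inactivating protein, *Arhgdib*, which holds Rac proteins in the cytosol of blood cells, and *Iqgap1*, a scaffold that binds active Rac, were also lower, *Iqgap1* at 13.5 and 19.2 against 642 and 463. Of the 15 higher genes 6 were in the group listed as Rac activators, out of 9 measured, and 4 were Rac inhibitors, out of 7. Both lay near the 60.7% of all genes. *Dock4* had 300 and 204 in microglia against 64.5 and 9.45 in neutrophils, and *Fgd2*, an activator of the related switch Cdc42, had 139 and 127 against 31.5 and 5.19. *Srgap2*, a Rac-inactivating protein that bends membranes, had 752 and 530 against 138 and 31.8. *Arhgap22*, another Rac-inactivating protein, had 69.4 and 65.4 against 16.5 and 2.13. Microglia RNA was not removed from these neutrophil values.

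For each of the 8 members above the minimum, the genes with the nearest profile were found over 6 sums, the 3 classes in 2 libraries, by the root mean square difference of centred log2 values among 4414 others. *Cyfip1* was nearest to *P4ha1* (0.0750), *Tmem64* and *Mef2a* (0.125), *Cyfip2* to *Ptgs2* (0.183), *Lilr4b* and *Lrrk2*, and *Abi3* had *Cryba4* (0.178) and *Bin1* among its 3 nearest. *Rac1* was nearest to *Csnk2a1* (0.0462), *Dnajb6* and *Paip2*, *Nckap1l* to *Pik3cg* (0.0685), *Zswim6* and *Cflar*, and *Wasf2* to *Rab14* (0.0608), *Mgat1* and *Zfp710*. *Abi1* was nearest to *Phip* (0.0577), *Rictor* and *Gcc2*, and *Brk1* to *Dynlrb1* (0.0870), *Rbm42* and *Med10*. No member had another member among its 3 nearest genes. The 6 sums share libraries and hold 3 classes, so likeness here is a description of those 6 values.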

How the data were processed

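The deposited matrices hold raw UMI counts, which the authors had not normalized. Their headers name Cell Ranger 6.1.2, and the submitters' processing notes name STAR, mm10 and Seurat 3.0.1. From these counts, 6 of the 7038 WT barcodes and 17 of the 7834 LI barcodes with fewer than 200 genes or over 10% mitochondrial UMIs were left out. UMIs were summed over the cells of a class and given per 1000000 UMIs of that class (CPM) with 95% exact Poisson intervals. Shares have exact binomial (Clopper-Pearson) intervals, and log2 ratios have Clopper-Pearson intervals. All cover counting error only, with 1 library per genotype, and a count of 0 allows up to 3 counts. No test over cells was run, because cells of 1 library share their source. A gene was counted as higher or lower from 1.5-fold, and only where either sum reached 50 CPM. The genotype ratios of *Cyfip2* in microglia and other cells are printed although its sums were under that minimum, and were in no count at the main settings. No doublet caller was run. Leaving out the 5% of cells with the most UMIs stood in for it. Gene models came from GENCODE M21, matched by identifier for 32235 genes.

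The members, the class rule and the pathway list were chosen with earlier results of these data known. The genes named are all members, the paralogs *Rac2*, *Rac3*, *Rhog*, *Wasf3* and *Abi2*, up to 5 pathway genes past the fold in each direction, the 3 nearest profiles of each member, *Disc1*, *Malat1* and markers. A few of these items are not reported here. *Actr2* and *Ttr* were named after their values were seen. *Cyria* and *Cyrib* were matched by the older symbols *Fam49a* and *Fam49b*. The alternatives were other gates and cell filters, thinning to 1000 UMIs, means over cells, totals without abundant genes, another minimum, exon length and TMM scaling (edgeR 4.0.16, R 4.3.3). The ratios were tested on simulated Poisson counts for microglia over 3556 genes, where 95.1% of intervals held the known ratio. The intervals assume such counts, and no variation between cells or libraries was simulated, so this checks the computation only. Intervals were computed with scipy 1.17.1 (Python 3.11.15, with numpy 2.4.6), tables with pandas 2.3.3, and plots with matplotlib 3.10.9.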

Additional observations from a re-analysis of the deposited data

Results flagged for a closer look

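For 3 members the genotype ratio lay on opposite sides of 0 in different classes, with counting intervals clear of 0 on both sides. The classes also differed as a whole. The median log2 ratio of all genes compared was -0.12 in microglia, -0.35 in neutrophils and -0.02 in other cells. The log2 ratio of LI over WT for *Rac1* was 0.17 in other cells, -0.12 in microglia and -0.34 in neutrophils. For *Brk1* it was 0.24 in microglia, 0.37 in other cells and -0.29 in neutrophils. For *Cyfip2* it was 2.32 in microglia, from 18 and 13 UMIs, -0.50 in neutrophils and -0.46 in other cells. The *Cyfip2* sums in microglia and other cells were under the minimum of 50 CPM used for the counts. Other cells were a different mixture in the 2 libraries. Of them, 52 of 736 in WT and 1427 of 2245 in LI were monocyte-marked, and 178 and 38 had border macrophage markers. The part of this in the ratios of other cells was not tested. TMM scaling, which added 0.92 in neutrophils, turned *Rac1* there to 0.58 and *Brk1* to 0.62 and puts *Cyfip2* above 0 too, and with the microglia gate at 1% *Rac1* in other cells turned to -0.13. With 1 library per genotype these differences were not tested. *S100a8* and *S100a9* made up 0.0687% of UMIs in LI and 0.00279% in WT microglia, beside the *Cyfip2* value there. In monocyte-marked cells alone *Rac1* had 0.11 (-0.09 to 0.33) and *Brk1* 0.45 (0.19 to 0.72). In neutrophils with microglia gate genes under 0.1% of UMIs they had -0.11 and -0.17, with intervals that reached 0.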

How the results depend on the processing

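In microglia the 7 genotype ratios kept their sign under each of the 10 alternatives, with *Cyfip1* between -0.52 and -0.39 and *Abi1* between -0.61 and -0.51. The count of members lower in LI microglia was 0, and 1 with the gate at 0.25%, with cells of at least 1000 genes and with a minimum of 10 UMIs in place of 50 CPM, which also made the count higher 1. In neutrophils the count lower was 5, and 3 without the 5% of cells with the most UMIs, 3 with means over cells, 3 with microglia gate genes under 0.1% (added after seeing the data), 1 with cells thinned to 1000 UMIs and 2 with TMM scaling, which also made the count higher 1. *Nckap1l* turned to 0.0762 with thinning and 0.14 with TMM there, and TMM turned *Wasf2* to 0.15, *Abi1* to 0.16, *Rac1* to 0.58 and *Brk1* to 0.62. The count of members higher in microglia than in neutrophils was 4, and between 3 (TMM) and 6 (microglia gate genes under 0.1%). TMM also turned the microglia over neutrophils ratios of *Rac1* (-0.57), *Abi1* (-0.75) and *Brk1* (-0.53) in LI. The cause of these moves was not tested. Shares of all genes are given for the main settings only, so counts under the alternatives have none beside them. Of members against other cells, 1 was higher with the gate at 1%, and 2 were lower, in place of 0, with the 10 UMI minimum, which adds low genes. No paired analysis was possible because each genotype had 1 library and no replicate. Depth limits *Wasf1*, *Wasf3* and *Nckap1*, which rest on few UMIs.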
